A study of Mus musculus with 12 samples.

Results

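The RNA of embryonic retinas that lost the transcription factor Tbr2 was compared with that of wild type retinas, in female embryos alone. The libraries were taken by their labels, as all those described as pools of female retinas, and were 6 of the 12 in the series. The other 6 came from males and were not used here. Each library was a pool of 12 retinas at E15.5 (embryonic age in days) on the C57BL/6 strain, 3 pools labelled Six3-Cre:Tbr2f/f (mutant females 4, 5 and 6) and 3 labelled wild type (wildtype females 4, 5 and 6). In the mutants Cre recombinase is driven by Six3 regulatory sequence and removes a floxed part of Tbr2. Six3-Cre acts across the early eye field and parts of the forebrain, so the deletion is not limited to any class of retinal neuron. The labels used here do not say whether the wild type embryos carried Cre or a floxed allele. Retinas of several litters went into a pool per the series design text, so p-values measure the spread between pools and not between embryos.

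Tbr2 is the product of the gene Eomes and belongs to the T-box family, transcription factors that bind DNA through a shared T-box domain. In the mouse retina it is made in a part of the newly formed ganglion cells, the neurons whose axons form the optic nerve, and it is known to be needed for intrinsically photosensitive retinal ganglion cells (ipRGCs). These cells carry melanopsin, a light-sensitive pigment encoded by Opn4, and set the body clock and the pupil reflex. At this embryonic age ganglion cells, cone photoreceptors, horizontal cells and early amacrine cells are born side by side from dividing progenitors, and bulk RNA mixes them all.

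Total counts ran from 19681999 to 27072825 per pool, and between 17970 and 19242 genes had at least 1 read. Levels are given as CPM, the count of a gene scaled to 1000000 counts of its library. Pearson correlations of log2 CPM lay between 0.974 and 0.991 for all pairs of pools. Wildtype and mutant pools did not separate on the first principal component, which held 40.2% of the variance and on which mutant female 5 lay farthest out. The mitochondrial transcript mt-Nd6 stood at 381, 48.4 and 373 CPM in wildtype females 4, 5 and 6 and at 484, 18.4 and 19.0 CPM in mutant females 4, 5 and 6. It therefore split the pools into a high set (wildtype females 4 and 6, mutant female 4) and a low set (wildtype female 5, mutant females 5 and 6), each with pools of both genotypes. Summed over the lens list, crystallins and other lens genes reached 2158 CPM in mutant female 5, against 11.6 to 239.6 CPM in the other 5 pools. Genes of the labelled tissue were abundant in every pool, such as the precursor gene Atoh7 and the ganglion cell gene Pou4f2. The female transcript Xist was at 1123 to 2036 CPM, and 0 of 4 Y-linked genes searched were listed.

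Wildtype female 6 stood apart from the other wildtype pools at a pair of transcripts that were singled out after their values were seen. Cacna1i, which encodes a T-type calcium channel subunit, was at 6.91, 6.96 and 102 CPM in wildtype females 4, 5 and 6 and at 151, 154 and 179 CPM in mutant females 4, 5 and 6. RP24-68F22.7, an antisense transcript that overlaps Six3 on mm10 chromosome 17 from 85619326 to 85621001, was at 4.14, 5.54 and 19.0 CPM in the wildtype pools and at 31.1, 24.8 and 29.4 CPM in the mutant pools. At both, wildtype female 6 lay between the other wildtype pools and the mutants. Six3 itself, the homeobox gene of the anterior eye field, was level at 382, 441 and 414 CPM against 393, 444 and 438 CPM. At Eomes wildtype female 6 was the highest of all pools, at 64.6 CPM. So wildtype female 6 stood nearer the mutants at Cacna1i and RP24-68F22.7, and on the wildtype side at Eomes. Whether Cacna1i or RP24-68F22.7 marks genotype was not tested, and the labels do not say whether wild type embryos carried Cre. What sets wildtype female 6 apart was not tested, and it is 1 of the 3 wildtype pools in every value that follows unless stated.

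**Figure D1:**
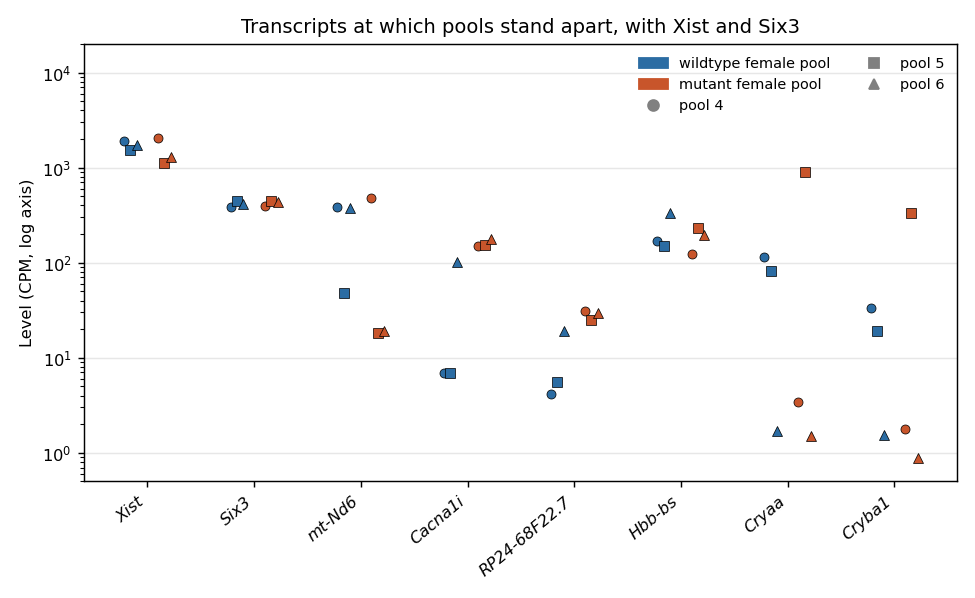
Levels in CPM (log axis) of transcripts at which pools stand apart, with Xist and Six3 for comparison, 1 point per pool, with wildtype female pools in blue, mutant female pools in orange and the pool number by shape. Cryaa reaches 907 CPM in mutant female 5. The level of mt-Nd6 is high in wildtype females 4 and 6 and mutant female 4, and low in the other pools. Wildtype female 6 lies at 102 CPM for Cacna1i, near the mutants.

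Eomes, the targeted gene, fell in the mutants to 23.8% of its wildtype level. Its counts were 1457, 1052 and 1293 in wildtype females 4, 5 and 6 and 217, 355 and 331 in mutant females 4, 5 and 6. As levels this was 53.8, 53.4 and 64.6 CPM against 9.62, 15.2 and 16.1 CPM. Every mutant pool lay well below every wildtype pool, and mutant female 4 kept the least transcript. The means were 57.3 ± 6.32 and 13.6 ± 3.49 CPM (SD, n = 3 each). In edgeR's quasi-likelihood fit of 14956 genes, with p-values adjusted after Benjamini and Hochberg, the log2 fold change was -2.08 (SE 0.18, 95% interval -2.48 to -1.67, adjusted p = 0.0271). Blocking on the replicate number, edgeR gave -2.10 (adjusted p = 0.000527). Within the mt-Nd6 high set, with mutant female 4 as its only mutant pool, the log2 fold change was -2.60. Within the low set, with wildtype female 5 as its only wildtype pool, it was -1.75. Leaving out mutant female 4 kept the edgeR call (adjusted p = 0.00106), and leaving out any other pool ended it, with adjusted p from 0.0782 without wildtype female 6 to 0.162 without wildtype female 4. Without mutant female 4 the mutant pools left were all of the mt-Nd6 low set, with wildtype pools of both sets. Genes with an unadjusted edgeR p under 0.05 then numbered 2175 of 15188, against 394 of 14956 over all pools. The fold change of Eomes itself stayed between -2.20 and -1.89 as pools were left out.

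Eomes (ENSMUSG00000032446) is a protein-coding gene on the plus strand of mm10 chromosome 9, from 118478212 to 118486132. Reads of all its exons were counted together, those outside the floxed part included. In RNA of whole retina, fewer cells of a type and less RNA per cell cannot be told apart, for Eomes and for each gene that follows. Scaled by gene length, the mean level of Eomes was 16.1 FPKM (fragments per kilobase of gene and 1000000 fragments, as deposited) in wildtype and 3.83 FPKM in mutant pools.

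Eomes was the only gene of 14956 past the edgeR threshold of 0.05, or 0.00669% of genes tested. A further 9 genes passed in DESeq2, which called 10 of 14938 genes (0.0669%), and all 9 genes of the authors' deposited female table with an adjusted p under 0.05 (0.0479% of 18772) were among those 10. By direction DESeq2 gave 8 lower (0.0536%) and 2 higher (0.0134%). The deposited results had 8 genes (0.0426%) lower in the mutants, Eomes, Irx1, Trhde, Synm, Tbx20, Zfp125, Igf1 and Mir17hg, and 1 (0.00533%) higher, Gm9625. DESeq2 on the same counts added Kcnh1, higher. The 9 genes besides Eomes are described with values and with the test that called each, since edgeR without a block called 0 of them.

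Irx1, an Iroquois homeobox gene that marks a part of the ganglion cells, had the largest drop after Eomes among these genes. It stood at 5.32, 8.23 and 9.59 CPM in wildtype females 4, 5 and 6 and at 1.46, 2.09 and 2.28 CPM in mutant females 4, 5 and 6. The highest mutant pool was below the lowest wildtype pool, and the mutant mean was 25.2% of the wildtype mean. The log2 fold change was -1.98 (SE 0.27, edgeR adjusted p = 0.546, DESeq2 adjusted p = 2.45e-07). Blocking on the replicate number, edgeR called Irx1 too (adjusted p = 0.0299), and 2 of 14956 genes in all (0.0134%). Without each pool in turn it stayed between -2.18 and -1.79. Irx1 (protein coding) lies on mm10 chromosome 13 from 71957921 to 71963723.

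Tbx20, a T-box gene like Eomes and a marker of ipRGCs, fell in DESeq2 (adjusted p = 0.00307) to 44.4% of wildtype. Its level was 12.2, 10.5 and 14.3 CPM in wildtype females and 7.23, 4.23 and 4.95 CPM in mutant females 4, 5 and 6. All wildtype pools were above all mutant pools. The edgeR log2 fold change was -1.17 (SE 0.24, adjusted p = 0.986), at -0.85 in the mt-Nd6 high set and -1.18 in the low set. Tbx20 lies on chromosome 9 from 24720812 to 24774303.

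Igf1, which encodes a secreted insulin-like growth factor, was at 22.5, 18.4 and 37.2 CPM in wildtype females 4, 5 and 6 and at 13.3, 12.9 and 11.1 CPM in mutant females 4, 5 and 6. The groups did not overlap, and wildtype female 6 was far above the other wildtype pools. Its log2 fold change was -1.07 (SE 0.25, edgeR adjusted p = 0.986, DESeq2 adjusted p = 0.0193), and -0.73 without wildtype female 6.

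Trhde, which encodes an enzyme that breaks down thyrotropin-releasing hormone, was at 12.2, 10.7 and 11.5 CPM in wildtype females and at 6.21, 4.06 and 5.44 CPM in mutant females 4, 5 and 6. The wildtype pools were close together, with the mutant mean at 45.6% of theirs. The log2 fold change was -1.13 (SE 0.19, edgeR adjusted p = 0.689, DESeq2 adjusted p = 0.000335). Synm, the gene of synemin, an intermediate filament protein, was at 66.6, 64.9 and 67.4 CPM against 37.7, 49.5 and 40.4 CPM. Wildtype values of Synm spanned a narrow range and each mutant pool lay below it, for a log2 fold change of -0.64 (SE 0.11, edgeR adjusted p = 0.689, DESeq2 adjusted p = 0.00138).

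Zfp125, a zinc finger gene, was at 3.07, 3.10 and 2.75 CPM in wildtype females and at 0.843, 1.07 and 0.825 CPM in mutant females 4, 5 and 6. Pools of each genotype were nearly equal, and the log2 fold change was -1.70 (SE 0.25, edgeR adjusted p = 0.587, DESeq2 adjusted p = 0.00307). It overlaps the pseudogene 3110053B16Rik on the same strand, so its count is uncertain. Mir17hg, the host transcript of the miR-17 cluster of microRNAs, was at 16.3, 23.5 and 22.5 CPM against 11.8, 11.0 and 13.7 CPM. Its log2 fold change was -0.77 (SE 0.15, edgeR adjusted p = 0.986, DESeq2 adjusted p = 0.0241). The values are of the host transcript and say nothing of the mature microRNAs.

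Gm9625 and Kcnh1 were higher in the mutants. Gm9625, a pseudogene whose reads may be shared with its parent gene, was at 125, 110.5 and 122 CPM in wildtype females and at 160.3, 159.9 and 174 CPM in mutant females 4, 5 and 6. Its log2 fold change was 0.47 (SE 0.08, edgeR adjusted p = 0.689, DESeq2 adjusted p = 0.00285). Kcnh1, a voltage-gated potassium channel gene, was at 3.80, 4.32 and 4.89 CPM against 7.19, 10.4 and 7.57 CPM. The groups did not overlap for either gene, and Kcnh1 had a log2 fold change of 0.95 (SE 0.20, edgeR adjusted p = 0.986, DESeq2 adjusted p = 0.0477). In the authors' deposited table its adjusted p was 0.0992.

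**Figure D2:**
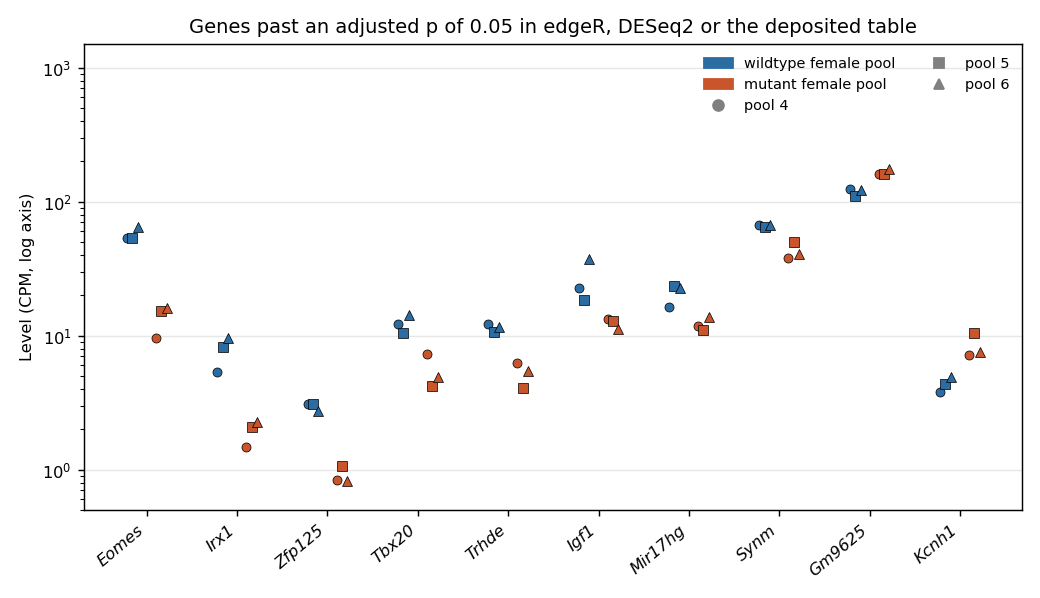
Levels in CPM (log axis) of the 10 genes past an adjusted p of 0.05 in edgeR, DESeq2 or the authors' deposited table, 1 point per pool, with wildtype female pools in blue, mutant female pools in orange and the pool number by shape. For each gene the 3 mutant pools lie on 1 side of the 3 wildtype pools, for Eomes at 9.62 to 16.1 against 53.4 to 64.6 CPM.

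The promoters of 3 of the genes that were lower show what stands just before their start sites, since T-box proteins such as Tbr2 and Tbx20 are known to bind the letters AGGTGT. The sequences are the 250 bases before the start in the direction of the gene, from RefSeq on GRCm38.p6. Synm lies at chr7:67759743-67759992, Tbx20 at chr9:24774304-24774553 and Trhde at chr10:114802303-114802552, all on the minus strand. Capitals mark AGGTGT, read on both strands.
Synm: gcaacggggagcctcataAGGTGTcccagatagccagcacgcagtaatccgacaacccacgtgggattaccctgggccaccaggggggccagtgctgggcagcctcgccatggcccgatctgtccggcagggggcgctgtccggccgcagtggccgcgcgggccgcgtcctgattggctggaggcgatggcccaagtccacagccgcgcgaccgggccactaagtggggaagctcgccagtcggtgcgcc
Tbx20: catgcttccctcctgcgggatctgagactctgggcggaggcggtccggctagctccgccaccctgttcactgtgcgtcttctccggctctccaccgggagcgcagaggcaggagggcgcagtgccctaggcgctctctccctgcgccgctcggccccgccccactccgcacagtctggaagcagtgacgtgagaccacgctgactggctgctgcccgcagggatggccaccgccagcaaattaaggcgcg
Trhde: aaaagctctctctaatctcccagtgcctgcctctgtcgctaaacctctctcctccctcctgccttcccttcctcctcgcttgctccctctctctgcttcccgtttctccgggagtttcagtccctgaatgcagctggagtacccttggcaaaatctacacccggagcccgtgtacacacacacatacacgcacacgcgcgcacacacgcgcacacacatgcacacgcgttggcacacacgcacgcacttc
Synm held the motif 232 bases before its start, and Tbx20 and Trhde did not hold it in this window. Nor did Eomes, Igf1 and Mir17hg, the other called genes that were lower and had an entry, whose sequences are not printed. Among the genes named for a test or for the size of their difference, 15 of 23 had an entry, with 17 promoters, and 2 of these held AGGTGT, those of Synm and Clic3. AGGTGT was in 11.8% of all 32851 promoters of the table and in 9.49% of the 13763 promoters of genes tested. The longer AGGTGTGA, which contains it, was in 1.12% and 0.610% of them and in 1 of the 17, that of Clic3. A match here is a description of letters and no evidence of binding.

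Over the whole table few genes passed a threshold on adjusted p. In edgeR 394 genes had an unadjusted p under 0.05 (2.63% of those tested), 198 lower (1.32%) and 196 higher (1.31%). That count was 849 of 14956 when edgeR blocked on the replicate number and 780 of 14956 with a term for the mt-Nd6 set. It was 2175 of 15188 without mutant female 4 and 187 of 15313 without wildtype female 6. Without any difference a share of about 0.05 of genes would have such a p. The 2.63% over all pools is not above that share, and the counts with the block and the mt-Nd6 term lay near it. The log2 fold change was -1 or below for 80 genes (0.535%) and 1 or above for 64 (0.428%). Mutant and wildtype pools did not overlap for 1210 genes (8.09%), 578 lower (3.86%) and 632 higher (4.23%). With 3 pools against 3, an exact permutation test of a single gene cannot go below p = 0.1, so this count carries no test. Groups without overlap have that p, so a share of about 0.1 of genes would show them without any difference. The 8.09% here is not above that share, and groups without overlap are alone no sign of a difference. The median 95% interval reached 0.60 to either side on the log2 scale for genes of 1 to 10 CPM, the same as 1.51-fold, and 1.13-fold for genes of 100 CPM and over. These are medians before adjustment for the number of genes, and larger differences, such as that of Gm9625, also missed the edgeR threshold.

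**Figure D3:**
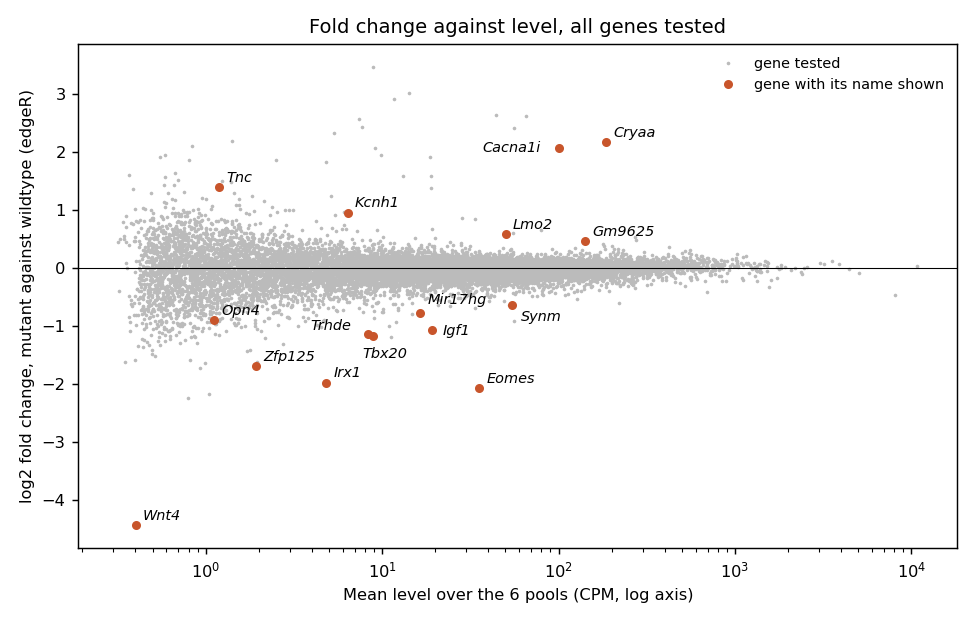
The edgeR log2 fold change of mutant against wildtype (y axis) against the mean level over the 6 pools in CPM (x axis, log scale), 1 point for each of 14956 genes tested. Eomes lies at -2.08 among genes within a narrow band around 0, and the spread widens towards low levels.

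Among genes of ipRGCs most values were lower in the mutants, with few past a test. The list held 12 genes and 10 were tested: Rasgrp1 fell under the count filter and Ceacam10 was not listed. Of the 10, 8 were lower and 2 higher. Their median log2 fold change was -0.55 against -0.01 over all genes tested. The groups did not overlap for 5 of them, 4 lower and 1 higher, where 8.09% of all genes did not. In DESeq2 Irx1, Tbx20 and Igf1 passed, in the block fit Irx1, and in edgeR without a block 0 (4 at an unadjusted p under 0.05, namely these 3 and Lmo2). The list was assembled with these data's earlier results known, so its direction is not independent evidence. The median fell in a gap between members, with Opn4 next below it and Adcyap1 next above. It was -0.35 without wildtype female 6, -0.34 without mutant female 4 and -0.36 with limma voom. Over the 9 members of at least 1 CPM, with Trpc7 left out, it was -0.21. A single gene of low level thus moved the median.

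Opn4, the melanopsin gene, was barely expressed at this age. It had 34, 26 and 36 counts in wildtype females 4, 5 and 6 and 7, 29 and 16 counts in mutant females 4, 5 and 6. As levels these were 1.26, 1.32 and 1.80 CPM against 0.310, 1.24 and 0.777 CPM. The mutant pools were all below the wildtype pools, but mutant female 5 came close to wildtype female 4. The log2 fold change of -0.90 had a 95% interval from -1.96 to 0.16 (SE 0.46, edgeR adjusted p = 0.986). A difference in Opn4 was thus not detected with these pools. The fold change was -2.25 in the mt-Nd6 high set and -0.36 in the low set, and -0.54 without mutant female 4 and -1.43 without mutant female 5.

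Further along the light response of these cells, Plcb4, the phospholipase that melanopsin signals through, was at 32.1, 30.8 and 34.1 CPM against 31.3, 28.9 and 30.8 CPM (log2 fold change -0.09). The cation channel genes Trpc7 and Trpc6 had mean levels of 0.732 and 1.22 CPM in wildtype pools and 0.379 and 1.39 CPM in mutant pools, with overlapping groups. Adcyap1, which encodes the neuropeptide PACAP released by these neurons, was at 15.2, 14.7 and 16.1 CPM against 11.7, 13.5 and 14.8 CPM. Wildtype female 5 lay only just below mutant female 6, and its log2 fold change was -0.21 (95% interval -0.49 to 0.07). Nmb, a bombesin-like peptide gene, was at -0.16.

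Lmo2, a LIM-domain transcriptional cofactor gene placed on the list as an ipRGC marker, went the other way. It was at 36.0, 44.6 and 39.4 CPM in wildtype females and at 47.6, 68.1 and 64.7 CPM in mutant females 4, 5 and 6, without overlap. The log2 fold change was 0.59 (SE 0.13, edgeR adjusted p = 0.986, DESeq2 adjusted p = 0.0924), so it did not pass a test. Its ranges in the leave-out fits were 0.49 to 0.71.

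**Figure D4:**
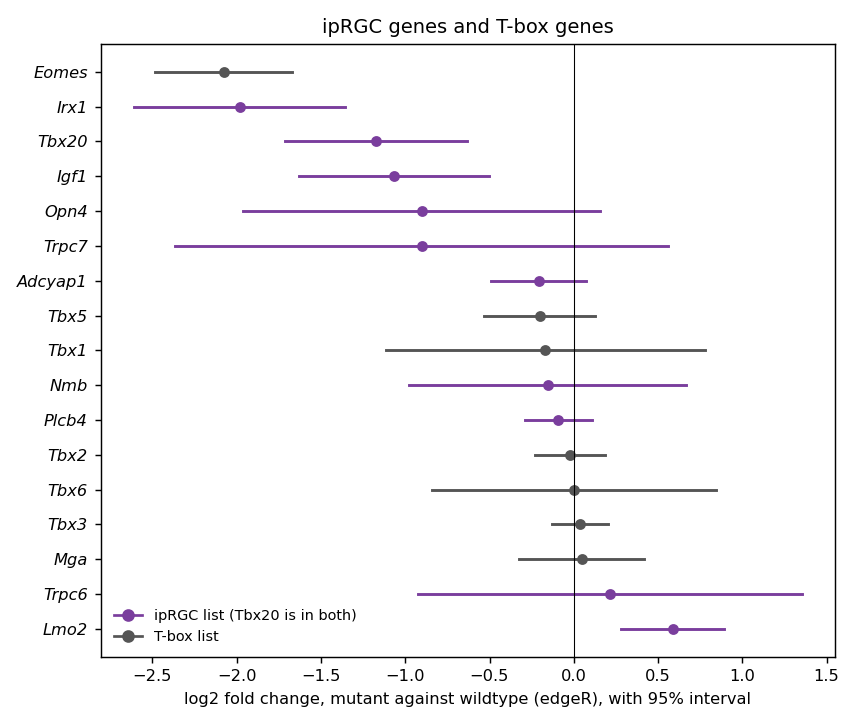
The edgeR log2 fold change of mutant against wildtype (x axis) with its 95% interval (bar) for each tested gene of the ipRGC list (purple) and the T-box list (grey). The intervals of Eomes, Irx1, Tbx20 and Igf1 lie below 0, that of Lmo2 above 0, and that of Opn4 reaches from -1.96 to 0.16.

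Among T-box genes, Eomes passed in edgeR and Tbx20 in DESeq2. Of 15 family members 8 were tested, 5 lower and 3 higher in the mutants, and the other 6 passed neither tool nor the block fit. Tbx4 and Tbxt were not listed, and Tbr1, Tbx15, Tbx18, Tbx21 and Tbx22 were under the count filter. Tbx2 and Tbx3, which pattern the dorsal retina, were at 180.1 ± 17.3 against 178 ± 19.1 CPM and 68.2 ± 2.15 against 69.9 ± 1.63 CPM (SD, n = 3 each). Their log2 fold changes were -0.02 (95% interval -0.23 to 0.19) and 0.04 (-0.13 to 0.20). Tbx5, another dorsal gene, was at 24.0, 27.2 and 20.7 CPM against 24.4, 19.0 and 19.1 CPM, and the groups overlapped. By length-scaled level over all 6 pools Tbx2 was first at 49.3 FPKM, then Tbx3 at 13.8, Eomes at 9.96, Mga at 9.34, Tbx5 at 5.69 and Tbx20 at 1.38 FPKM.

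The other Iroquois genes did not share the drop of Irx1. Irx2 was at 58.9, 61.2 and 68.3 CPM against 55.3, 65.2 and 61.1 CPM, and Irx5 at 31.1, 31.1 and 29.3 CPM against 27.4, 30.9 and 33.3 CPM. Their log2 fold changes were -0.06 (95% interval -0.27 to 0.16) and 0.00 (-0.20 to 0.20). Irx3, Irx4 and Irx6 were at 0.30, 0.09 and -0.17. All 5 had overlapping groups. The difference between Irx1 and each of them was not tested.

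Genes shared by ganglion cells were close to level. Of 22 tested, 17 were lower and 5 higher (median -0.06, and 15 lower with upper quartile scaling), and 0 passed the edgeR threshold (1 at an unadjusted p under 0.05), DESeq2 or the block fit. Pou4f2, the POU-domain factor that ganglion cells need to differentiate, was at 155, 150.0 and 145 CPM in wildtype females and at 157, 139 and 119.8 CPM in mutant females 4, 5 and 6. Isl1, the LIM-homeodomain factor that acts with it, was at 166, 161 and 159.8 CPM against 163, 155 and 150.2 CPM. For both the groups overlapped. The log2 fold changes were -0.11 (95% interval -0.37 to 0.14) for Pou4f2 and -0.05 (-0.22 to 0.11) for Isl1. Gap43, a growth cone protein gene, stood at -0.02 (-0.16 to 0.13). Ebf3, of the same Ebf family of early neuronal factors as Ebf1 and Ebf2, stood at 334 ± 22.6 CPM in wildtype against 381 ± 6.08 CPM in mutant pools (SD, n = 3 each), a log2 fold change of 0.19 (edgeR adjusted p = 0.986).

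Markers of other ganglion cell subtypes were split, with 9 lower and 11 higher of 20 tested and a median of 0.03 (6 lower with upper quartile scaling). Jam2, a junctional adhesion gene used as a marker of a direction-selective ganglion cell type, was at 74.5, 72.2 and 78.6 CPM against 64.4, 64.9 and 70.1 CPM. Its groups did not overlap and its log2 fold change was -0.18 (SE 0.08, edgeR adjusted p = 0.986). It was the member of that list with an unadjusted p under 0.05, and 0 passed the threshold.

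Genes of progenitors and of their neurogenic offspring had medians close to 0 over all pools. Of 14 progenitor genes 9 were lower and 5 higher (median -0.03), and of 13 precursor genes 8 were lower and 5 higher (median -0.03). The precursor median was -0.17 in the mt-Nd6 high set and 0.12 in the low set. Atoh7, the basic helix-loop-helix gene that makes precursors able to become ganglion cells, was at 532, 661 and 527 CPM in wildtype females and at 491, 661 and 527 CPM in mutant females 4, 5 and 6. Pools with the same number were nearly equal for 5 and 6, and the log2 fold change was -0.03 (95% interval -0.31 to 0.25). Notch1, the receptor that keeps progenitors undifferentiated, was at 282, 252 and 258 CPM against 288, 322 and 294 CPM, without overlap and with a log2 fold change of 0.19 (SE 0.08, edgeR adjusted p = 0.986). Among 10 cell cycle genes 6 were lower and 4 higher (median -0.04), and among 13 genes of apoptosis and stress 6 were lower and 7 higher (median 0.01).

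Other neuron classes gave small medians and 0 genes past the edgeR, DESeq2 or block threshold, with 0 at an unadjusted edgeR p under 0.05. Of 14 amacrine genes 11 were lower and 3 higher, with a median of -0.15. Gad2, which encodes an enzyme that makes the transmitter GABA, was at 50.8, 60.0 and 64.8 CPM against 50.7, 49.7 and 57.9 CPM, with overlap. The amacrine median was -0.40 in the mt-Nd6 high set and 0.04 in the low set, -0.0097 without wildtype female 6 and -0.038 without mutant female 4. Horizontal cell genes were 3 lower and 6 higher of 9 (median 0.07), and photoreceptor genes 6 lower and 5 higher of 11 (median -0.02). The photoreceptor median was 0.01 with upper quartile scaling, 0.20 without wildtype female 6 and 0.17 without mutant female 4. In the mt-Nd6 high set the horizontal and photoreceptor medians were -0.11 and -0.40, and in the low set 0.12 and 0.20. Axon guidance genes were 4 lower and 12 higher of 16, with a median of 0.10. Slit1, which encodes a repellent for growing ganglion cell axons, was at 47.0, 50.4 and 49.0 CPM against 50.9, 59.7 and 56.1 CPM, a log2 fold change of 0.19 (95% interval 0.00 to 0.37). Over all genes tested 51.7% were lower.

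**Figure D5:**
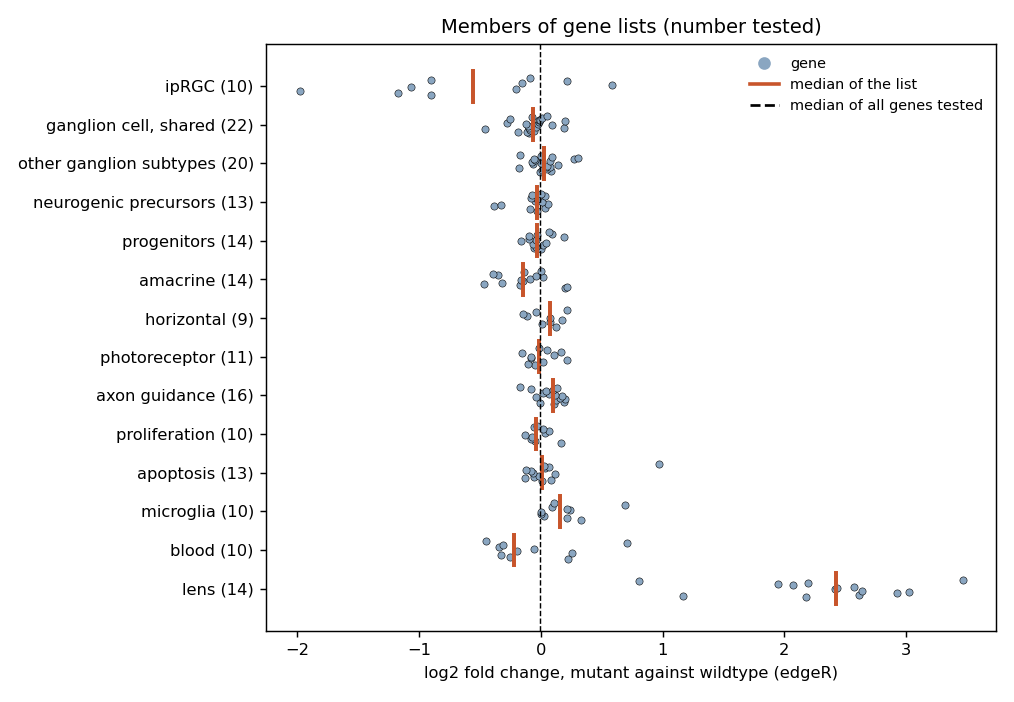
Each point is the edgeR log2 fold change of mutant against wildtype (x axis) of 1 gene tested, in rows by gene list with the number tested in brackets, and the bar is the median of the list. The ipRGC list has its median at -0.55 and the lens list at 2.42, and the other lists shown have medians between -0.23 and 0.16. Over the 9 ipRGC members of at least 1 CPM the median is -0.21.

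Beyond the called genes, the rule for named genes took the largest fold changes among known genes with a mean of at least 1 CPM, no overlap of the groups and an unadjusted edgeR p under 0.05. These did not pass edgeR, DESeq2 or the block fit. Synpr, a synaptic vesicle protein gene, was at 14.8, 9.76 and 22.5 CPM in wildtype females and at 9.40, 5.30 and 5.87 CPM in mutant females 4, 5 and 6 (log2 fold change -1.19, SE 0.34). Mutant female 4 was only just under wildtype female 5. Cd55, a complement regulator gene, was at 2.81 ± 0.408 against 1.31 ± 0.603 CPM (-1.08), and Fgfr4, a fibroblast growth factor receptor gene, at 2.13 ± 0.127 against 1.05 ± 0.414 CPM (-1.02; SD, n = 3 each). Clic3, a chloride channel family gene that overlaps BC029214 on the other strand, had a log2 fold change of -0.97.

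On the higher side Tnc, which encodes the extracellular matrix protein tenascin-C, was at 0.702, 0.864 and 0.400 CPM against 1.42, 2.14 and 1.65 CPM. Its log2 fold change was 1.39 (SE 0.36), the largest on that side under the rule for named genes. Slc39a7, a zinc transporter gene, and Pou3f3, a POU-domain factor gene, followed at 1.07 and 1.01. Nkx6-2, a homeobox gene that overlaps Inpp5a on the other strand, was at 3.92, 4.01 and 2.40 CPM against 5.50, 5.21 and 6.12 CPM, a log2 fold change of 0.70. The rest were Hist1h2bk (0.95, a histone gene with near-identical copies), Fam195a (0.78), Nexn (0.78), Lrrc29 (0.76) and Gpr182 (0.70, overlapping Zbtb39 on the other strand). For all these genes the adjusted p in edgeR was 0.986.

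Lens genes varied strongly between pools of the same genotype. Cryaa, the alpha-crystallin gene of the lens, was at 116, 82.6 and 1.70 CPM in wildtype females and at 3.46, 907 and 1.50 CPM in mutant females 4, 5 and 6. Of 19 lens genes 1 was not listed and 4 were under the count filter. The 14 tested all had higher fitted values in the mutants, with a median log2 fold change of 2.42, and of -2.87 without mutant female 5. For Cryaa itself the value was 2.18 (95% interval -2.21 to 6.56), and -4.73 without that pool. Red blood cell genes summed to 347.8 to 656 CPM in wildtype pools and 294 to 489.7 CPM in mutant pools, with 7 lower and 3 higher of 10. Their median was -0.23, and 0.07 without wildtype female 6.

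Microglia genes, the markers of resident immune cells, had edgeR log2 fold changes of 0.00 to 0.69 in all 10 tested, with a median of 0.16. Summed, they were at 50.5 to 55.2 CPM in wildtype pools and at 55.9 to 60.8 CPM in mutant pools. Fcer1g, an immune receptor subunit gene, was at 1.55, 1.07 and 1.35 CPM against 2.62, 2.09 and 1.75 CPM, a log2 fold change of 0.69 (SE 0.29, edgeR adjusted p = 0.986). Of the 10, 0 passed the edgeR, DESeq2 or block threshold, and Fcer1g had an unadjusted edgeR p under 0.05. Igf1, which microglia also make, was lower in the mutants while these markers were not, and the part of microglia in its level was not tested. Pigment epithelium genes (2 lower, 6 higher), vessel and mesenchyme genes (3 lower, 6 higher) and genes of the ciliary margin and stalk (3 lower, 5 higher) had medians of 0.16, 0.08 and 0.06, which ran from -0.080 to 0.30, 0.0057 to 0.15 and -0.0028 to 0.14 as each pool was left out. Of the remaining lists, early activity genes were 2 lower and 4 higher (median 0.03), surface ectoderm genes 4 lower of 4 (-0.40), neighbours of Six3 2 lower and 5 higher (0.01), mitochondrially encoded genes 11 lower and 1 higher (-0.23) and sex-linked genes 3 lower and 2 higher (-0.19). The mitochondrial median was 0.30 in the mt-Nd6 high set and -0.20 in the low set, and ran from -0.68 without mutant female 4 to -0.0033 without mutant female 5. The surface ectoderm median was -0.13 without mutant female 5. In these 8 lists 0 genes passed edgeR, DESeq2 or the block fit, and 0 had an unadjusted edgeR p under 0.05.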

How the data were processed

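Female libraries were tested on their own. The submitters' processing notes name CASAVA for base calls, STAR 2.5 with mm10 for alignment, HTSeq 0.6.1 for counting and DESeq2 for the comparison. Annotation release and strand setting are not stated there, so reads of overlapping genes on opposite strands cannot be told apart. The deposited table held raw counts per gene and library, per the file headers. Over genes with more than 50 counts, the median ratio of the count to the authors' deposited normalised signal was between 0.910 and 1.21 per library. The deposited FPKM values scaled counts by listed gene length and library total. Their deposited log2 fold changes lay nearer 0 than ratios of group means and are not printed. The deposited adjusted p-values are those of the authors' own DESeq2 run.

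Counts were tested with edgeR 4.0.16 in R 4.3.3 (TMM scaling, filterByExpr, two-sided quasi-likelihood test, Benjamini-Hochberg, threshold 0.05). Of 19954 listed genes 14956 were tested. Standard errors are the fold change over the square root of F, and 95% intervals use the moderated degrees of freedom. CPM values use library totals without TMM. Values within an mt-Nd6 set are fold changes at a fixed dispersion, with no test. Mutant female 4 is the only mutant pool of the high set, and wildtype female 5 the only wildtype pool of the low set. Alternatives were DESeq2 1.42.0, limma voom (limma 3.58.1), other scalings and filters, protein-coding genes alone, a term for the mt-Nd6 set (above or below 100 CPM), each pool left out and the replicate number as a block. The scripts were tested on simulated data. Deviations from the group means correlated at 0.236, 0.253 and 0.152 between same-numbered mutant and wildtype pools 4, 5 and 6. Among pools of unlike number, wildtype female 6 with mutant female 4 reached 0.213 and wildtype female 5 with mutant female 6 reached 0.151. No source says what a number marks, so these values do not establish pairing. The main fit therefore had genotype alone, with the block as an alternative.

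The members, the 23 gene lists and the rule on which genes to name were chosen with earlier results of these data known. The rule named Eomes, every gene called by the authors, edgeR, its block fit or DESeq2, in each direction up to 10 genes of largest fold change (unadjusted p under 0.05, at least 1 CPM, no overlap), and list members with an unadjusted p under 0.05. It also named Opn4, Tbx20, Irx1, Pou4f2, Isl1, Atoh7, Six3, Cryaa, mt-Nd6 and Xist whatever their values. Predicted genes, pseudogenes and lens, blood and sex-linked genes were skipped among the largest. Other list members are named as examples, chosen after their values were seen.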

Additional observations from a re-analysis of the deposited data

How the results depend on the processing

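Genes past the threshold numbered 1 in edgeR, 10 in DESeq2 and 2 with the replicate block, and 1 with limma voom or the mt-Nd6 term. The block added Irx1 and changed no other call. Leaving out each pool in turn gave 0 to 2 genes. The count was 0 without mutant female 5 or 6 or wildtype female 4 or 5. Genes with an unadjusted edgeR p under 0.05 then numbered 373 of 15169, 480 of 15314, 333 of 15229 and 440 of 15294. They numbered 394 of 14956 over all pools, 2175 of 15188 without mutant female 4 and 187 of 15313 without wildtype female 6. Genes past the threshold numbered 2 without wildtype female 6, where Cacna1i and RP24-68F22.7 passed and Eomes did not. Eomes ran from -2.20 to -1.89 in these fits and passed in 10 of 15 alternatives, with adjusted p from 2.19e-26 to 0.162. The ipRGC median was -0.36 with limma voom, -0.21 with genes of at least 1 CPM alone, and -0.68 to -0.34 as pools were left out. The count of genes whose groups do not overlap was 1210 over all pools. With a pool left out it ran from 1997 of 15313 without wildtype female 6 to 4913 of 15188 without mutant female 4. Fewer pools overlap less often, so these counts are not comparable with that over all pools. What sets their range was not tested. Of 40 named genes, 38 kept their direction in every alternative that gave them a value, 15 for 32 genes and 14 for the other 8. The exceptions were Atoh7, from -0.17 to 0.062 as pools were left out (above 0 without mutant female 4 or 6 or wildtype female 5), and Cryaa, from -4.73 without mutant female 5 to 2.88 without wildtype female 4, and at -0.60 with limma voom, -0.18 with the replicate block and -0.15 with the mt-Nd6 term. The cause was not tested. Many of the 40 genes were named because their groups did not overlap in these pools, and some were chosen after their values were seen. Their kept direction is therefore no independent support.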

Other observations

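The following genes lay outside the rule for named genes and were chosen after their values were seen. Wnt4, which encodes a secreted Wnt ligand, had 19, 19 and 13 counts in wildtype females 4, 5 and 6 and 1, 0 and 1 counts in mutant females 4, 5 and 6. Its summed level, 51 against 2 counts, was 3.94% of wildtype (exact 95% interval 0.464% to 15.0%, counting error only), with an edgeR adjusted p of 0.618 and a DESeq2 adjusted p of 0.158. Oprm1, the mu opioid receptor gene, was at 0.886, 1.37 and 1.70 CPM against 0.488, 0.214 and 0.0971 CPM, and the groups did not overlap. Its log2 fold change was -2.25 (SE 0.55, edgeR adjusted p = 0.986), and it overlaps Ipcef1 on the other strand.

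Igf1r, the receptor of the growth factor encoded by Igf1, was at 92.9, 86.4 and 84.9 CPM in wildtype females and at 103, 111 and 105 CPM in mutant females 4, 5 and 6. All mutant pools were above all wildtype pools, with a log2 fold change of 0.27 (SE 0.07, edgeR adjusted p = 0.986). Cacna1i had a log2 fold change of 2.07 over all pools (edgeR adjusted p = 0.986) and of 4.54 without wildtype female 6. RP24-68F22.7 was at 1.59 and 2.56 in the same fits. Without that pool the edgeR adjusted p was 2.9e-05 for Cacna1i and 0.0167 for RP24-68F22.7, and the library was left out after its values were seen.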
